A study of Mus musculus with 30 samples.

Results

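The cytosolic ribosome is built from a large and a small subunit, each an assembly of ribosomal RNA with many small proteins, most of which are encoded by a single expressed gene scattered over the genome. Their mRNAs are short, abundant and made at matched levels, and most begin with a tract of pyrimidines at the cap, the 5′ terminal oligopyrimidine (TOP) tract, through which the mTOR pathway sets their translation. In striated muscle a few subunits have a tissue-restricted paralog, of which Rpl3l in place of Rpl3 is the best known. Genes were taken as cytosolic ribosomal protein genes when their symbol followed the Rpl and Rps naming (Rpl or Rps with a number, the stalk proteins Rplp0 to Rplp2, Rpsa, and the suffixes used for paralogs), which gave 87 symbols. Of these, 82 passed the limits used for all genes, a mean over 20 reads and a mean over 0.5 FPKM (fragments scaled to exon length and library size) over all libraries. They were 50 genes of the large and 32 of the small subunit, among 12030 genes tested. The 5 symbols below the limits were Rpl10l with a mean of 0.0333 reads, Rps12l1 with 0.0333, Rpl39l with 1.67, Rpl32l with 6.0 and Rpl6l with 12.4 reads per library.

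Gastrocnemius muscle, collected together with the plantaris, came from male wild-type C57BL/6J mice that were kept singly with a running wheel and entered the schedules at 14 weeks of age. The LD group (14 mice) stayed on a fixed cycle of 12 h light and 12 h dark, and the ADV group (16 mice) was advanced by 8 h every 4 days, a model of chronic jet lag, each for 64 weeks. Poly(A)-enriched, stranded libraries were sequenced, 1 per mouse, and the comparison asked how the muscle transcriptome differed between the schedules after that time. The whole muscle was taken, so fewer cells of a type and less RNA per cell cannot be told apart, and the hour of sampling of each mouse is not in the labels. Marker genes of muscle fibers dominated every library, with a summed level of 70307 to 95260 FPKM under LD and 70805 to 98428 FPKM under ADV. By edgeR's test 0 of these 10 markers changed (against 10.8% of all genes tested), and 1 had an unadjusted p under 0.05 (against 30.1%). Exons held 19015401 to 28512674 read pairs per LD library and 18875468.5 to 25699603.5 per ADV library, where a lone mate counts as 0.5. The libraries of ADV mice 25 and 34 stood apart in exon share and in the trend of counts with transcript length, given with the levels per mouse. The main counts of genes that rose or fell are given with and without these mice.

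The stretch around the annotated start of each gene, 15 bases before to 15 bases from it on GRCm39, was searched for the run of pyrimidines by which this class of mRNA is known. A run of at least 8 bases that are C or T lay in this window in 27 of 82 ribosomal protein genes (32.9%) and in 1377 of 12029 genes tested that had a window (11.4%), read on the sense strand. A C followed by at least 4 bases that are C or T stood exactly at the annotated start in 8 of the 82 (9.76%) and in 291 of all genes (2.42%). The windows of 5 genes with a long run that rose in the ADV group are shown first, followed by 3 genes with a short run, of which Rps13 rose and the paralogs Rpl3l and Rpl22l1 did not pass the test. Most genes with a long run did not rise. Of the 27 genes with a run of at least 8 bases 11 rose, and of the 55 without one 9 rose. Capitals mark the longest run of C or T.
Rpl36 (chr17:56920401-56920430, plus strand): ctgcgcggtgccgTTCTTCCTgtcccggcc
Rpl37 (chr15:5146112-5146141, plus strand): tggcgggggtgCTTTCTCTTCCggtctctt
Rpl8 (chr15:76788263-76788292, plus strand): gctgcgttgacccgtctaTTTCCTCTTTCg
Rps15 (chr10:80128272-80128301, plus strand): gcgcaagcgcagcccgtaCTTCCTTTTCCg
Rplp1 (chr9:61821810-61821839, minus strand): cgcgcaggcgtatatgaTCTTTTCCTCagc
Rpl3l (chr17:24946779-24946808, plus strand): gcagctgagtgTTCTagctctgtcatttga
Rpl22l1 (chr3:28859570-28859599, plus strand): catatccggTTCCgagttgcgtatttcgca
Rps13 (chr7:115933416-115933445, minus strand): cgcgcgagagcaaacgTCggtgagtggcgt
The run was 11 bases long in Rpl37, Rpl8 and Rps15, 10 bases in Rplp1 and 8 bases in Rpl36. In Rpl3l and Rpl22l1 the longest run was 4 bases, and in Rps13 it was 2 bases. A window without a long run says only that these letters do not stand there, since the annotated start need not be the base at which the muscle transcript begins.

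Fold changes of cytosolic ribosomal protein mRNAs between the schedules were small and mostly toward higher levels in the ADV group. With edgeR's quasi-likelihood test and p-values adjusted over the 12030 genes after Benjamini and Hochberg (FDR), 20 of the 82 genes rose at an FDR under 0.05 (24.4%, against 5.61% of all genes tested that rose) and 0 fell (against 5.2%), with 49 higher and 1 lower at an unadjusted p under 0.05. None of the 82 (0) passed a fold change of 1.3 as well, which 2.09% of all genes did, 1.45% as rises and 0.648% as falls. The log2 fold change of ADV over LD was above 0 in 79 of the 82 genes and in 50.8% of all genes tested, with a median of 0.11 over the ribosomal protein genes, a difference of 7.94%, and of 0.00 over all genes. At an unadjusted p under 0.05, 50 of the 82 genes and 30.1% of all genes differed. The number that rose was 3 with the trend of each library with length removed (3.66%, against 4.26% of all genes). It was 3 with the trend with GC content removed (3.66%, against 2.44%) and 0 with exon share as a covariate (against 0.266%). It was 12 without LD mouse 28 (14.6%, against 3.65%) and 12 without ADV mouse 25 (14.6%, against 4.02%). With a clock gene score as a covariate 0 of the 82 and 0 of all genes tested passed, at a median log2 fold change of 0.11 with 21 of the 82 at an unadjusted p under 0.05. The score, the mean scaled level of clock genes that peak with Bmal1 minus that of clock genes opposite to it, was -1.07 ± 1.24 under LD and 0.937 ± 0.795 under ADV, so its part and that of the schedule cannot be told apart. Without ADV mice 25 and 34, 14 of the 82 genes rose (17.1%, against 3.47% of all genes), all of them among the 20, 0 fell (against 2.72%), and the median log2 fold change was 0.06.

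**Figure D1:**
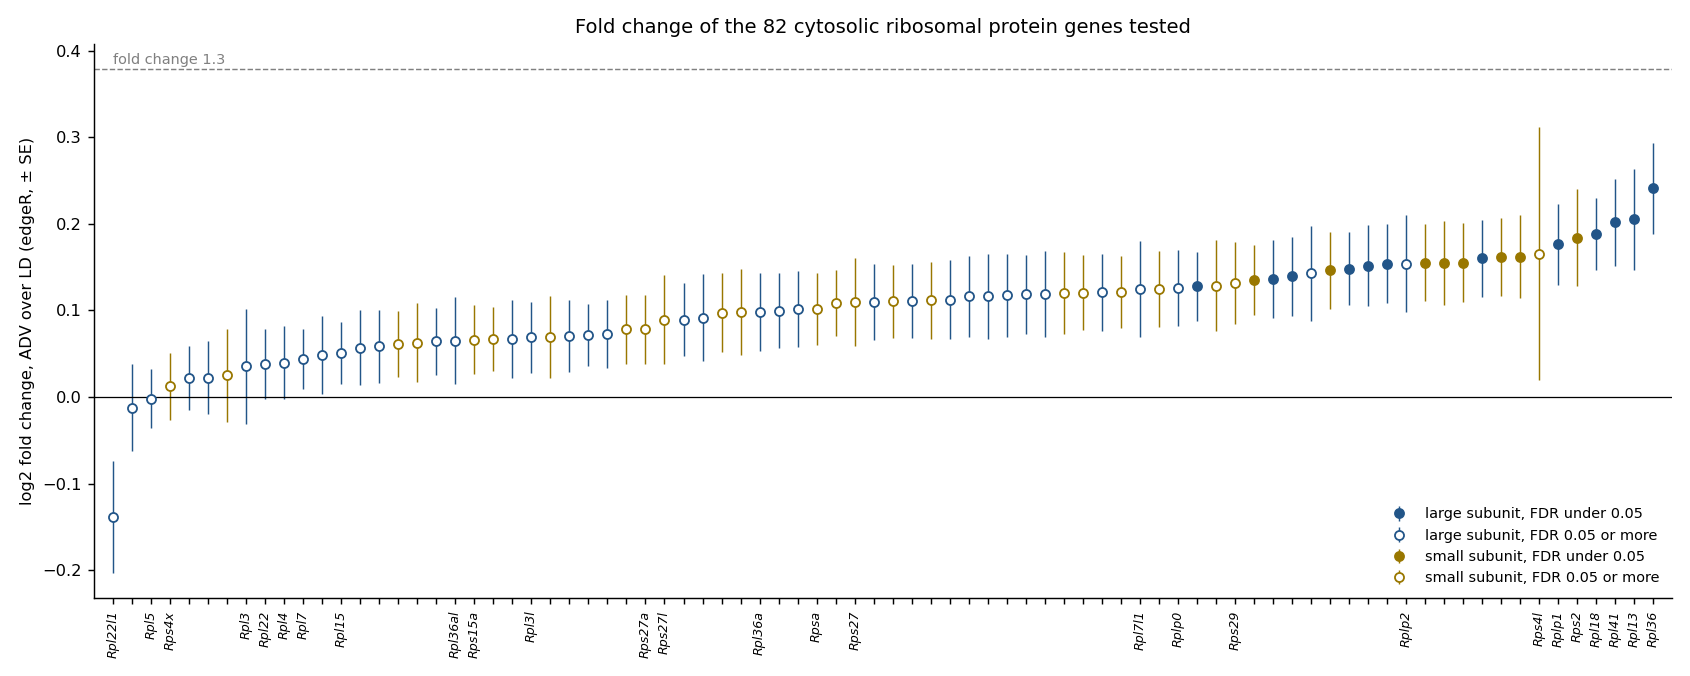
Fold change of each of the 82 cytosolic ribosomal protein genes, ADV over LD, on the log2 scale with its standard error (SE) from edgeR, in ascending order with only some genes labelled; filled points have an FDR under 0.05 and colors give the subunit. All 20 filled points lie between 0.13 and 0.24, below the dashed line at a fold change of 1.3, and Rpl22l1 at the far left has the lowest value, -0.14.

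The 20 genes that rose were spread over both subunits. Leaving out the paralogs, 12 of 46 genes of the large subunit (among them Rpl36, Rpl13, Rpl41, Rpl18, Rplp1, Rpl37, Rpl8 and Rpl19) and 8 of 30 genes of the small subunit (among them Rps2, Rps21, Rps15, Rps13 and Rps19) rose, and the median log2 fold change was 0.11 in each subunit. Their log2 fold changes lay between 0.13 and 0.24, rises of 9.26% to 18.2%, with FDRs of 0.00525 to 0.0466 by edgeR's quasi-likelihood test. For each of them, 13 to 16 of the 16 ADV mice were above the median LD mouse and 5 to 12 were above the highest LD mouse, so the groups overlapped in every gene. Of the 20, 11 kept an FDR under 0.05 in all 30 fits that each left out 1 mouse.

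Rpl36, a protein of the large subunit, had the largest change. LD mice spanned 189 to 257 FPKM (median 221) and ADV mice 237 to 368 FPKM (median 263). All 16 ADV mice were above the LD median and 10 were above the highest LD mouse. The mean was 224 ± 18.5 FPKM (SD, n = 14) under LD and 268 ± 30.6 FPKM (n = 16) under ADV, which is 0.24 higher on the log2 scale (standard error, SE, 0.05, edgeR FDR 0.00525).

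Rpl18, of the large subunit as well, overlapped less between the groups. It was at 30.4 to 34.8 FPKM in LD mice (median 32.5) and at 32.7 to 47.7 FPKM in ADV mice (median 36.2), and 12 ADV mice were above every LD mouse. The log2 fold change came to 0.19, with an SE of 0.04 and an edgeR FDR of 0.00561. The row of Rpl18 is 2976 bases long, far longer than most, and its exons overlap Sphk2 on the opposite strand, so its level in FPKM cannot be set against that of the other genes.

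Rpl41 encodes the smallest ribosomal protein, a short basic peptide that bridges the subunits. It was at 157 to 182 FPKM in LD mice (median 170) and at 166 to 264 FPKM in ADV mice (median 193), where 15 mice were above the LD median and 12 above the highest LD mouse. The log2 fold change was 0.20 (SE 0.05, edgeR FDR 0.0117). Rpl13, at 203 ± 16.4 FPKM under LD and 236 ± 31.2 FPKM under ADV, varied more between mice and had a log2 fold change of 0.21 (SE 0.06, edgeR FDR 0.0243). Of the small subunit, Rps2, which lines the entry of the mRNA channel, had the largest change that passed the test. LD mice lay at 286 to 390 FPKM (median 334) and ADV mice at 314 to 504 FPKM (median 369), with 7 ADV mice above the highest LD mouse, a log2 fold change of 0.18 and an edgeR FDR of 0.0334. The exons of Rps2 overlap Snhg9 on the opposite strand, and without ADV mice 25 and 34 its FDR was 0.0713.

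The stalk of the large subunit, which recruits the GTPases of elongation, is made of Rplp0 and copies of Rplp1 and Rplp2. Rplp1 was the most abundant of the 82 genes per length, at 468 ± 27.6 FPKM under LD and 535 ± 57.8 FPKM under ADV, and rose by a log2 fold change of 0.18 (SE 0.05, edgeR FDR 0.0168). LD mice lay at 394 to 508 FPKM and ADV mice at 453 to 686 FPKM, with 9 ADV mice above the highest LD mouse. Rplp2 went from 134 ± 10.9 to 150 ± 19.0 FPKM (log2 fold change 0.15, FDR 0.0653) and Rplp0 from 358 ± 22.8 to 394 ± 40.0 FPKM (0.13, FDR 0.0568), values that did not pass the test. The difference between these members was not tested.

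Other abundant or bifunctional members had differences that did not pass the test. Rps29 was at 384 ± 20.0 FPKM under LD and 425 ± 48.8 FPKM under ADV (log2 fold change 0.13, edgeR FDR 0.0663). Rpl4, the fourth most abundant over all mice, was at 354 ± 15.8 and 368 ± 29.8 FPKM (0.04, FDR 0.550). Rpsa, known also as the laminin receptor precursor, went from 167 ± 5.83 to 181 ± 18.8 FPKM (0.10, FDR 0.0977). Rps27a, which is made as a fusion with ubiquitin, went from 119 ± 3.64 to 127 ± 12.5 FPKM (0.08, FDR 0.180). Rpl5, which carries the 5S ribosomal RNA into the large subunit, had the value nearest to 0, with 76.6 ± 3.00 FPKM under LD and 77.4 ± 4.88 FPKM under ADV (-0.00, FDR 0.980). Rpl5 was also among the 3 genes with the narrowest spread between mice, with Rpl7 and Rpl15. Levels per length depend on the row that stands for a gene. The shortest was Rps27 with 338 bases at a mean of 327 FPKM and the longest Rps15a with 5170 bases at 18.3 FPKM, the lowest level of any member that is no paralog.

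The paralogs ranged from far below their parents (Rps4l) to far above (Rpl3l), and 0 of the 6 that were measured changed between the groups by edgeR's test, with 2 at an unadjusted p under 0.05. Rpl3l, the form of striated muscle, was at 266 ± 15.2 FPKM under LD and 282 ± 25.7 FPKM under ADV, and Rpl3 at 32.2 ± 4.16 and 33.5 ± 5.03 FPKM. Rpl3l exceeded Rpl3 in all 30 mice. The ratio of Rpl3l to Rpl3 lay between 6.20 and 10.9 in LD mice (median 8.25) and between 6.21 and 10.98 in ADV mice (median 8.31), so the groups covered the same range. The log2 fold change was 0.07 for Rpl3l (SE 0.04, edgeR FDR 0.259) and 0.04 for Rpl3 (SE 0.07, FDR 0.755).

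Rpl22l1, the paralog of Rpl22, was at nearly the same level per length as its parent. It held a mean of 493 reads per library on a row of 545 bases, against 2151 reads on 2044 bases for Rpl22. Its median was 37.7 FPKM in LD mice (31.8 to 50.9) and 35.6 FPKM in ADV mice (27.8 to 42.6), and the only other members with a log2 fold change below 0 were Rpl10 (-0.01) and Rpl5 (-0.00). Among the 16 ADV mice, 4 exceeded the LD median and 0 exceeded the highest LD mouse. The log2 fold change of -0.14 (SE 0.06) had an edgeR FDR of 0.144 and did not pass the test. After removal of the trend with length of each library, described below, it was -0.23 with an FDR of 0.0267, and after removal of the trend with GC content it was -0.01. Rpl22, at 42.2 ± 2.10 and 43.8 ± 2.97 FPKM, had a log2 fold change of 0.04 (FDR 0.550), and the ratio of Rpl22l1 to Rpl22 had a median of 0.910 in LD and 0.833 in ADV mice.

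Of the other pairs, Rpl36al was close to its parent Rpl36a on the X chromosome, with a median ratio of 0.942 in LD mice and 0.879 in ADV mice. Rps27l, a paralog known as a p53 target, stood at 0.216 of Rps27 in LD mice and 0.211 in ADV mice. Rpl7l1, a nucleolar relative of Rpl7, stood at 0.0568 of Rpl7 in LD mice and 0.0603 in ADV mice. These ratios are per length, with rows of 2593 bases for Rpl7l1 and 1150 bases for Rpl7. Rps4l was at 1.42 FPKM over all mice, 0.0066 of Rps4x in LD and 0.0071 in ADV mice, and its wide spread (0.83 to 2.13 FPKM in LD mice and 0.65 to 2.29 FPKM in ADV mice) stood at a mean of 46.2 reads per library. Its log2 fold change of 0.17, the seventh highest of the 82, had an SE of 0.15 and an edgeR FDR of 0.461.

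**Figure D2:**
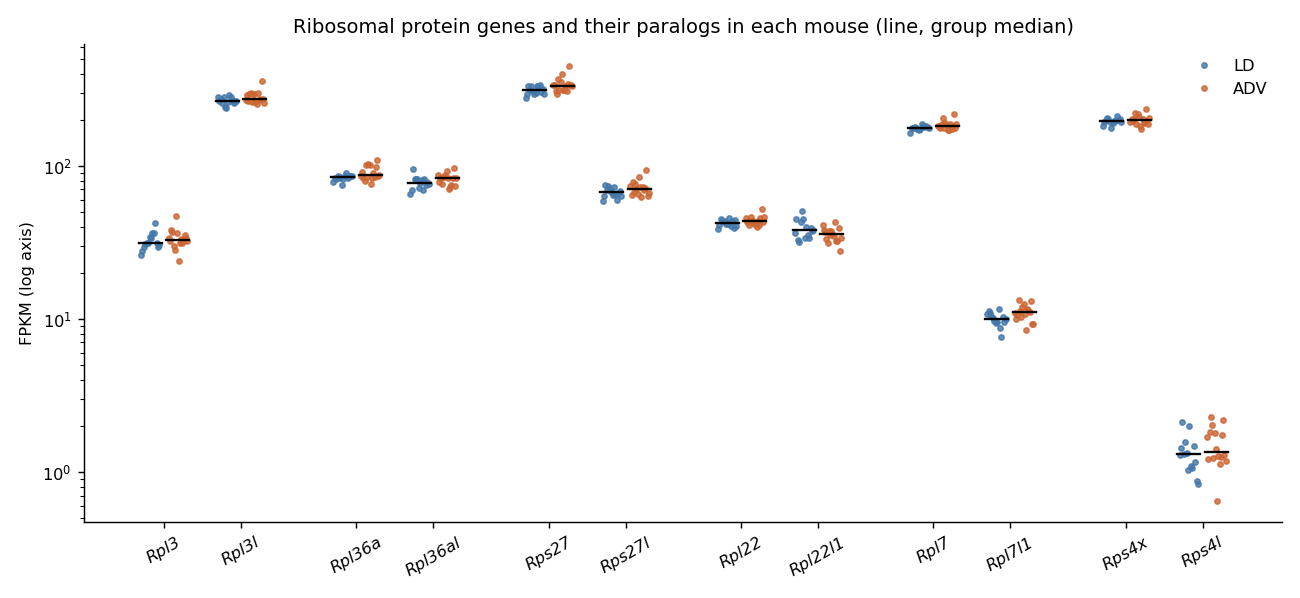
FPKM on a log axis of the 6 measured paralogs, each to the right of its parent gene, in every LD and ADV mouse (points) with the group median (line). Rpl3l lies above Rpl3 in every mouse with a median ratio of 8.25 in LD and 8.31 in ADV mice, Rpl22l1 and Rpl36al lie close to their parents, and Rps4l lies near 1 FPKM.

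Summed over the 82 genes, ribosomal protein reads made up 1.12% to 1.27% of the reads of all tested genes in LD mice (median 1.20%) and 1.16% to 1.61% in ADV mice (median 1.27%). The mean was 1.20 ± 0.0406% (SD, n = 14) under LD and 1.29 ± 0.115% (n = 16) under ADV. The LD median was exceeded by 12 ADV mice and the highest LD mouse by 7, and the SD of the ADV group was the larger. The upper end of the ADV group was held by mouse 34 (1.61%), mouse 25 (1.41%), mouse 27 (1.40%) and mouse 28 (1.39%). Without mice 25 and 34 the ADV mean was 1.26 ± 0.0718% (n = 14).

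Traits of the libraries were set beside this share, and ADV mice 25 and 34 were at one end of each of them. For each library, slopes were fitted to the deviation of log2 CPM (counts scaled to library size) from the mean of the gene. These fits left out the 82 genes, genes without a GC content and genes averaging 50 reads or fewer. The slope with exon length lay between -0.0017 and 0.0497 per doubling of length in LD mice. It lay between -0.0445 and 0.0283 in 14 ADV mice, and was -0.105 in ADV mouse 25 and -0.221 in ADV mouse 34. The slope of the deviation with GC content, per 10 percentage points, lay between -0.165 and 0.0408 in LD mice. It lay between -0.0778 and 0.181 in the same 14 ADV mice, and was 0.263 in mouse 25 and 0.325 in mouse 34. In mouse 34, ribosomal protein genes had a median log2 CPM 0.44 above their median over all mice, the genes under 1000 bases that encode no ribosomal protein 0.34 above theirs, and the genes of 1000 bases or more 0.02 below theirs. In mouse 25 these medians were 0.28, 0.16 and -0.01. The share of all reads that fell on exons was 90.9% to 91.3% in LD mice and 91.1% to 92.7% in ADV mice, where 12 of 16 were above the highest LD mouse, and it was highest in mice 34 (92.7%) and 25 (92.0%). Across mice, Pearson's r between the mean level of the 82 genes and the slope with length was -0.45 in LD mice, -0.94 in ADV mice and -0.64 in ADV mice without 25 and 34. With the slope with GC content r was 0.56, 0.78 and 0.20, and with exon share it was -0.01, 0.88 and 0.29, so in the ADV group the high values for these traits rested on those mice. These r are descriptions, since each pair of values comes from the same library. The part of these traits in the rise was not tested, and because exon share differed between the groups, its part and that of the schedule cannot be told apart by a fit. With exon share as a covariate the median log2 fold change of the 82 genes was -0.00, 39 were above 0 and 0 passed the test by edgeR, with 3 at an unadjusted p under 0.05. In that fit 45 of all 12030 genes passed, with 0.266% that rose.

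**Figure D3:**
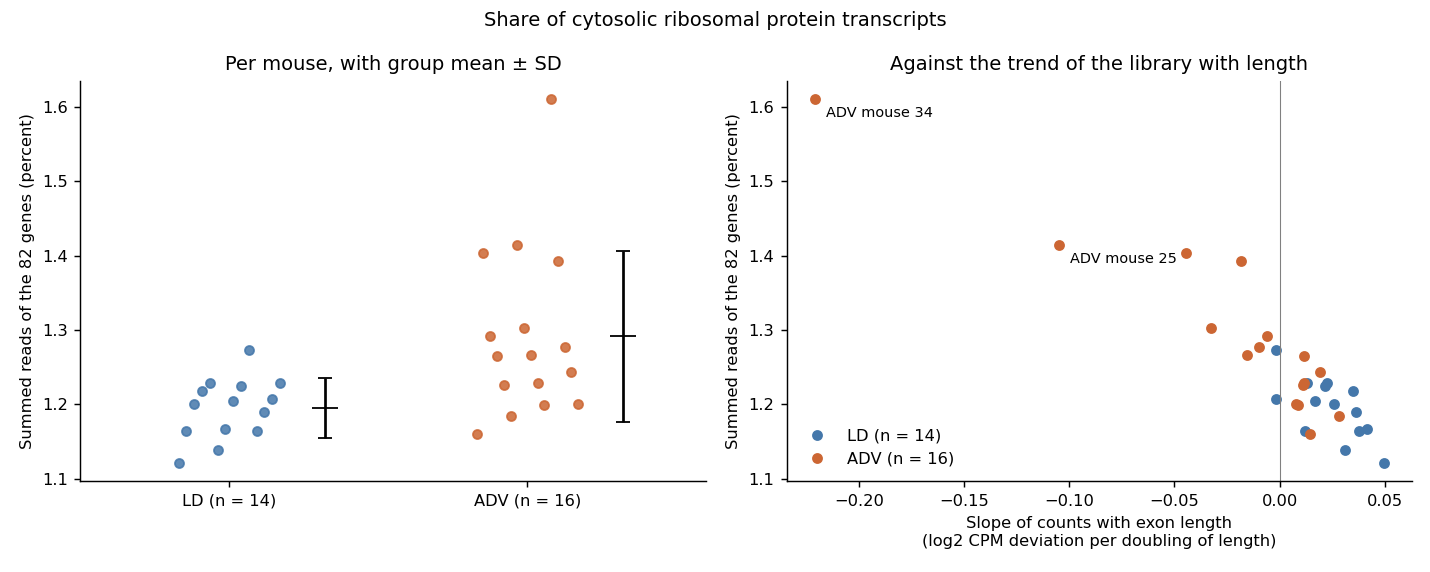
Summed reads of the 82 ribosomal protein genes as a percent of the reads of all tested genes. The left panel gives mice by group with the mean ± SD. The right panel sets the share against the slope of the log2 CPM deviation with exon length in the same library. LD mice lie between 1.12% and 1.27%, ADV mice reach 1.61%, and ADV mice 34 and 25 combine a high share with slopes of -0.221 and -0.105.

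The size of the change was set beside transcript length and GC content. Across the 82 genes, Spearman's rho between exon length and log2 fold change was -0.28, close to the -0.29 across all 12030 genes, but with the trend with GC content removed it was 0.01 across the 82 genes and -0.23 across all genes. The rho between GC content and log2 fold change was 0.53 against 0.47 across all genes. These are relations across genes, which are not independent replicates. The 20 genes that rose had a median length of 686.5 bases and a median GC content of 54.2%, and the other members 914.5 bases and 49.7%. Across members, longer rows had more reads, with a rho of 0.32 between length and mean log2 CPM against 0.24 across all genes.

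Since ribosomal protein genes are short (median 825 bases, against 2791 bases over all genes tested), they were set beside other genes of their length. Below 1000 bases, the median log2 fold change of 54 ribosomal protein genes was 0.11 and 31.5% of them rose, and that of 1032 other genes was 0.08 and 12.0% rose. Without ADV mice 25 and 34 these medians were 0.07 and 0.05, and the shares that rose were 22.2% and 6.69%. After each library's trend with length had been removed, the medians were 0.02 and -0.00 and the shares that rose were 3.70% and 3.39%. Log2 fold changes were above 0 in 96.3% and 71.9% of these genes as measured, and in 72.2% and 49.7% with the length trend removed. Over all 82 genes, 3 rose with the length trend removed, Rpl36, Rpl18 and Rpl41, with edgeR FDRs of 0.0190, 0.0105 and 0.0478, Rpl22l1 fell, and the median log2 fold change was 0.02. With each library's trend with GC content removed, 3 rose, Rpl36, Rpl18 and Rpl37, with FDRs of 0.0419, 0.0257 and 0.0278, and the median was 0.09. These 3 of 82 are 3.66% of the genes in either fit, against 4.26% of all genes that rose with the length trend removed and 2.44% with the GC content trend removed. In the same fits 5.07% and 2.59% of all genes fell.

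**Figure D4:**
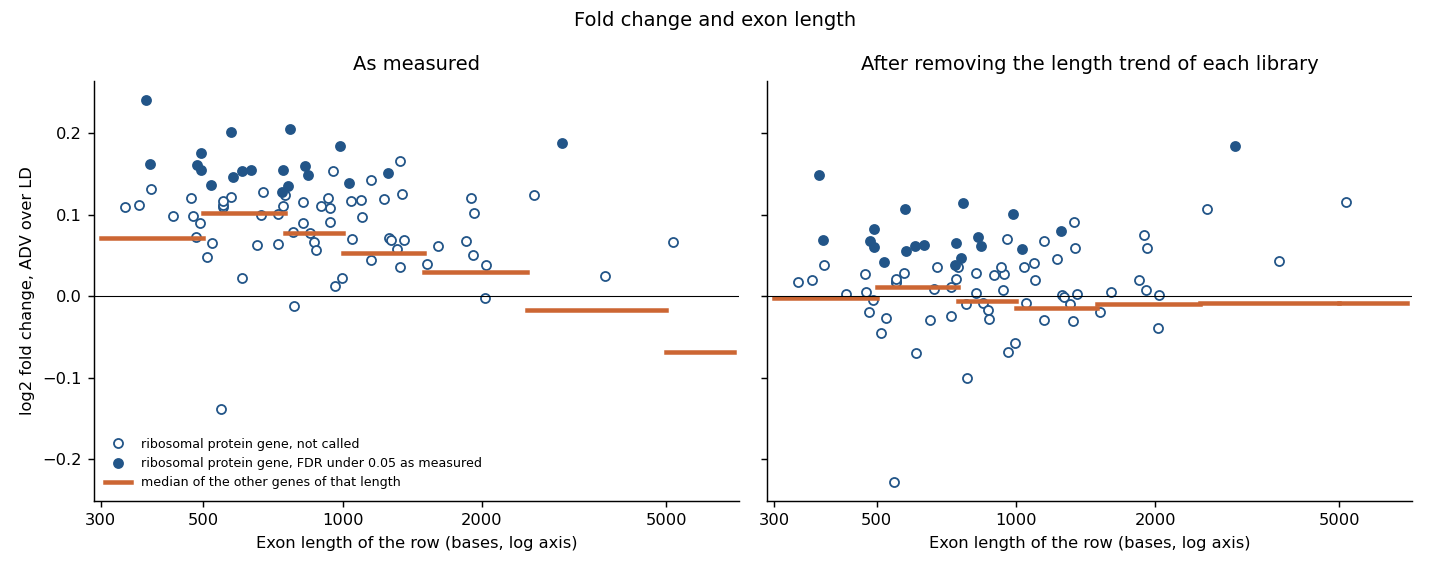
Log2 fold change of ADV over LD against exon length on a log axis for the 82 ribosomal protein genes (points) and the median of the other tested genes in bins of length (lines), as measured on the left and after removing each library's trend with length on the right. On the left most points and the lines lie above 0 for short genes, and on the right the median of the 82 genes is 0.02 and Rpl22l1 lies lowest at -0.23.

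The 82 genes moved together from mouse to mouse. The median Pearson correlation of log2 CPM over all pairs of members was 0.62 among the 14 LD mice and 0.86 among the 16 ADV mice, against -0.00 over all pairs of tested genes in either group; the genes share the depth and composition of each library, so this is a description. In ADV mice 25 and 34, 80 and 82 of the 82 genes were above their median over all mice. Without these mice the median correlation was 0.55 in the ADV group, and with the trend with length removed it was 0.62 in LD and 0.60 in ADV mice. Over 76 respiratory chain genes the median was 0.84 in LD mice, 0.79 in ADV mice and 0.67 in ADV mice without 25 and 34. Over 78 mitochondrial ribosomal protein genes it was 0.47, 0.57 and 0.33. The difference between these lists and the 82 genes was not tested.

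**Figure D5:**
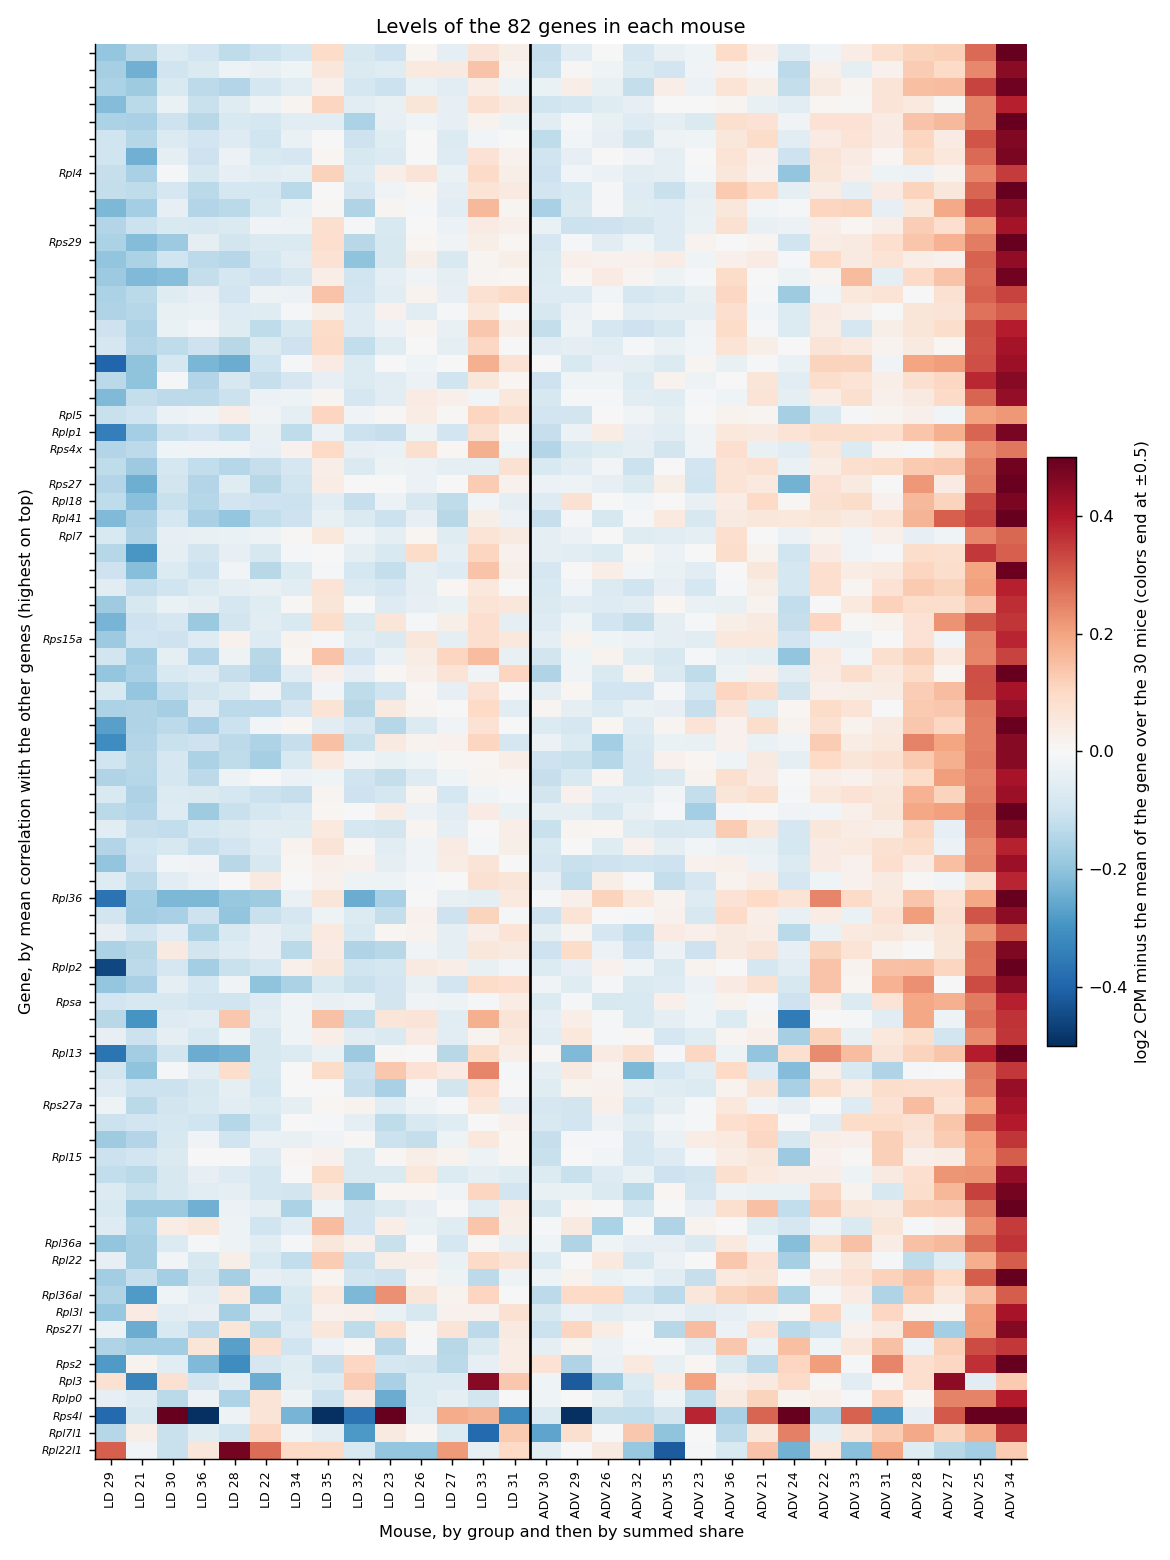
Log2 CPM of each of the 82 genes in each of the 30 mice as the difference from the mean of the gene, with mice ordered by group and summed share and genes, of which some are labelled, by their mean correlation with the other members. Columns tend to be of a single color from top to bottom, ADV mice 25 and 34 are the darkest at the right edge, and Rps4l, Rpl7l1, Rpl22l1, Rplp0 and Rpl3 at the bottom follow the columns least.

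Members differed in how closely they followed the others. The 5 genes with the lowest mean correlation with the average of the other members were Rpl22l1 (r -0.28 in LD and 0.27 in ADV mice), Rpl7l1 (-0.14 and 0.60), Rps4l (0.06 and 0.47), Rplp0 (-0.16 and 0.88) and Rpl3 (0.47 and 0.25). Rplp0 had a mean of 12411 reads per library. Without ADV mice 25 and 34, r in the ADV group was 0.28 for Rpl22l1, 0.28 for Rpl7l1, 0.03 for Rps4l, 0.65 for Rplp0 and 0.44 for Rpl3, and the lowest values after Rps4l were then those of Rpl22 (0.15) and Rps27l (0.16). The member closest to Rplp0 was Rps13, with r of 0.65 under LD and 0.56 in the ADV group without mice 25 and 34. Between Rpl3 and Rpl3l, r across mice was 0.08 under LD and 0.17 in the ADV group.

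Genes that act on or with the ribosome were looked up in the same fit, where 5.61% of all genes rose and 5.2% fell. Of 24 other transcripts with TOP tracts or of ribosome-bound products, such as the elongation factors, 1 rose and 0 fell by edgeR's test, and the median log2 fold change was 0.04. Without ADV mice 25 and 34 there were again 1 rise and 0 falls, with a median of 0.01. Eef2, the factor of translocation, was at 504 and 537 FPKM in the LD and ADV groups (log2 fold change 0.08, edgeR FDR 0.218), and Eef1a1 at 176 and 175 FPKM (-0.04, FDR 0.728). Of 29 initiation and related factors, Eif4a1, the helicase that unwinds mRNA leaders, rose (0.17, FDR 0.0382), Eif1ax, which acts in start site scanning, fell (-0.14, FDR 0.0142), and the median was 0.01. The FDR of Eif4a1 without ADV mice 25 and 34 was 0.0854, so 0 rose, and Eif1ax kept an FDR under 0.05 (0.0346).

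Of 79 factors of ribosome assembly and RNA polymerase I, 5 rose (6.33%) and 5 fell (6.33%), shares near those of all genes, with a median log2 fold change of 0.02. There were 3 rises and 2 falls without ADV mice 25 and 34. The largest of these changes with all mice were the falls of Rcl1 (-0.34, edgeR FDR 0.0397), Ddx52 (-0.25, FDR 0.0244) and Rpf1 (-0.25, FDR 0.00928), which act in the processing of pre-rRNA, and the rise of Nob1 (0.24, FDR 0.00584), the nuclease that makes the end of the small subunit RNA. The FDRs of Rcl1 and Ddx52 without those mice were 0.0905 and 0.0564, and those of Rpf1 and Nob1 were 0.0207 and 0.0146. Of 30 genes of mTOR control, 2 rose and 4 fell, with a median of 0.03. The falls included Pdcd4, an inhibitor of Eif4a that is degraded after S6 kinase phosphorylation (-0.34, FDR 0.00152), Deptor, which binds and inhibits mTOR (-0.23, FDR 0.0429), Rragd, a Rag GTPase of amino acid sensing (-0.21, FDR 0.00382), and Rps6kb1, the S6 kinase (-0.18, FDR 0.0147). The rises were those of Akt1s1, the mTORC1 component PRAS40 (0.19, FDR 0.0267), and Lamtor3 (0.17, FDR 0.0224). Of the 30, 0 rose without ADV mice 25 and 34, with FDRs of 0.0580 for Akt1s1 and 0.0526 for Lamtor3, and 3 fell, with an FDR of 0.0980 for Deptor. Of 17 genes of ribosome quality control 0 changed by edgeR's test, with 8 at an unadjusted p under 0.05.

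Mitochondrial ribosomal proteins, which form a separate ribosome in another compartment, were looked up as well. Of 78 genes, 19 rose and 0 fell with a median log2 fold change of 0.11, and the rises were 24.4% of the list. Without ADV mice 25 and 34, 12 rose with a median of 0.08, and with the length trend removed 7 rose with a median of 0.07. The largest rises were those of Mrpl14 (0.29, edgeR FDR 0.0216), Mrps34 (0.25, FDR 0.0119), Mrpl34 (0.25, FDR 0.00778) and Mrps6 (0.23, FDR 0.0122), of which Mrpl14 had an FDR of 0.0532 without those mice. Of 76 nuclear-encoded subunits of the respiratory chain, which are short as well (median 701 bases), 37 rose (48.7%) and 0 fell with a median of 0.17. Without ADV mice 25 and 34, 19 rose with a median of 0.13, and with the length trend removed 13 rose with a median of 0.09. The largest rises with all mice were those of Cox6a1 (0.42, edgeR FDR 0.00101) and Cox8a (0.37, FDR 0.00442), subunits of cytochrome c oxidase. No difference between these lists and the cytosolic ribosomal proteins was tested.

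Markers of cells other than muscle fibers were looked up in the same fit. Among 6 adipocyte markers 1 rose, Fabp4 (median log2 fold change of the list 0.65, summed level 194 to 359 FPKM in LD and 210 to 690 FPKM in ADV mice), among 6 endothelial markers 1 rose, Pecam1 (0.10, 60.3 to 83.4 and 67.5 to 94.7 FPKM), and among 6 fibroblast markers 1 fell, Pdgfra (-0.12, 272 to 359 and 236 to 379 FPKM). In these lists 4, 1 and 3 markers had an unadjusted p under 0.05 by the edgeR test. The log2 fold change was above 0 in 5, 5 and 0 of them. None of 6 Schwann cell markers (0.46, 24.7 to 47.5 and 26.5 to 82.6 FPKM), 5 erythroid markers (0.17, 70.1 to 136 and 85.3 to 146 FPKM) and 6 of 8 leukocyte markers that could be tested (-0.32, 78.6 to 343 and 76.5 to 157 FPKM) passed the edgeR test, with 5, 2 and 2 at an unadjusted p under 0.05. Cd3e and Cd79a, which define T and B cells, were below the limits for testing. Pecam1 had an FDR of 0.0576 without ADV mice 25 and 34, and Fabp4 and Pdgfra kept FDRs of 0.0376 and 0.0434. In mice 34 and 25, which had the highest ribosomal protein share, the summed Schwann cell level was 49.6 and 56.2 FPKM, above every LD mouse, and that of muscle fibers was 98428 FPKM in mouse 34, also above every LD mouse, and 91112 FPKM in mouse 25. The fibroblast level was 282 and 249 FPKM, below every LD mouse in mouse 25, and the adipocyte (304 and 322 FPKM), endothelial (67.5 and 70.6 FPKM), leukocyte (105 and 80.6 FPKM) and erythroid (112 and 107 FPKM) levels lay inside the LD range. The part of these cells in the rise was not tested.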

How the data were processed

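RNA from the gastrocnemius of 14 LD and 16 ADV mice was analysed, 1 library per mouse, grouped by the labels. The authors trimmed 101-base paired-end reads, mapped them to GRCm39 with STAR (2.7.10a in the submitters' processing notes), removed reads with a mapping quality under 10 and counted reads on the exons of 57186 rows with HOMER (4.11 in the same notes). The deposited raw counts are estimated counts, since HOMER counts each mate as 0.5 read; 14.8% were not whole, and all were rounded. The deposited FPKM values were made by the authors with the same tool and were used for levels. Reads that map equally well to a gene and a processed pseudogene have a low mapping quality, so levels may be understated, and whether counting used the strand is not given in the sources used here. Rows named as ribosomal protein pseudogenes numbered 322, with 7 past the limits, and held 0.309% as many reads as the 82 genes. Exons of 34 of the 82 genes overlap another gene on the opposite strand in GENCODE vM39 and those of 4 on the same strand.

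The longest row per symbol with a mean over 20 reads and over 0.5 FPKM was tested in edgeR 4.0.16 (quasi-likelihood F test, TMM) in R 4.3.3, with Benjamini-Hochberg adjustment over 12030 genes. With at least 18875468.5 read pairs per library, members had a mean of 46.2 reads or more. Shares, medians and correlations are descriptions without a test. The members and lists were chosen with earlier results of these data known. Named were the 6 largest rises, the 5 most abundant members, paralogs with parents, stalk proteins, Rpsa, Rps27a, the widest and narrowest spreads, the lowest correlations, the shortest and longest row, and up to 4 called genes per related list; the remaining genes that rose or that passed in a second fit, the start windows, Rpl10, Eef2, Eef1a1, the other called mTOR genes and the partners in correlations were named after their values were seen, and some genes are not reported here by name. Mice came from separate cages, and no 2 libraries of a group agreed within sampling noise (smallest chi-square per degree of freedom 10.6). Alternatives were DESeq2 1.42.0, limma 3.58.1 on log2(FPKM + 0.1) and log2(FPKM + 1), other scalings, filters, row choices, a block on the label number, a clock gene score as a covariate, trends with GC content or length (natural splines, 4 degrees of freedom) removed by offsets, and leaving out each mouse. Chosen after seeing the data were leaving out ADV mice 25 and 34, exon share as a covariate, and a fit of the 28 libraries with shared numbers that has no block. GC content came from GENCODE vM39 transcripts for 99.9% of the genes. The main edgeR fit and the removal of the GC content trend were tested on simulated data.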

Additional observations from a re-analysis of the deposited data

How the results depend on the processing

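The 20 ribosomal protein genes that rose were 20 with RLE size factors, with TMM factors without the members and with rows summed per symbol. Of all genes 5.65%, 5.79% and 5.61% rose in these fits. The count was 23 of 81 with a mean over 100 reads (against 7.59% of all genes) and 25 with DESeq2 (against 7.27%). The count was 31 with library size alone (against 6.44% of all genes) and 4 without the filter on low genes (against 1.05%). It was 32 with limma on log2(FPKM + 0.1) and 31 with limma on log2(FPKM + 1), against 7.15% and 7.13% of all genes. It was 3 with the GC content trend removed (against 2.44%) and 3 with the length trend removed (against 4.26%), where 1 fell. With a clock gene score as a covariate it was 0 (0 of all 12030 genes, with 21 of the 82 at an unadjusted edgeR p under 0.05). With exon share as a covariate the count was 0, where 45 of all genes passed and 0.266% rose. With the fold change limit of 1.3 it was 0 in each of these fits and in each fit without 1 mouse. The median log2 fold change of the 82 genes was 0.12 with library size alone, which moved the median of all genes from 0.00 to 0.01, and -0.0023 with exon share as a covariate, its only change of sign. Leaving out each mouse gave 12 to 24 genes that rose (against 3.65% to 6.45% of all genes) and 0 to 0 that fell. The median log2 fold change was then 0.08 to 0.12 and the difference in summed share 0.0753 to 0.105 percentage points (0.0966 with all mice). Median correlations were 0.57 to 0.65 in LD and 0.74 to 0.88 in ADV mice, and the rho with length was -0.33 to -0.25. The count was 12 without LD mouse 28 and 12 without ADV mouse 25, where 3.65% and 4.02% of all genes rose.

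The label number occurs in both groups for 28 mice. Between the deviations of same-numbered mice the median correlation was 0.01 (-0.26 to 0.43) and was over 0.1 in 6 of 14 pairs. Of 14 mice, 3 correlated best with their own number. Whether same-numbered mice shared a step of handling cannot be told from this check, so the number was used only in alternative fits. With the number as a block 4 of the 82 genes rose (4.88%, against 2.39% of all genes). In the same 28 libraries without the block 8 rose (9.76%, against 2.75%), and with the block and the GC content trend removed 0 (against 1.08%).

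In FPKM the summed share differed by 0.194 percentage points. The summed share was not recomputed with library size alone, since it uses no scaling factor. The median correlation in LD mice was 0.52 with library size alone and 0.53 on log2(FPKM + 0.1), and in ADV mice 0.69 with Spearman's measure, 0.60 with the length trend removed and 0.55 without mice 25 and 34. The rho between length and log2 fold change was 0.0082 with the GC content trend removed, 0.039 with the length trend removed and -0.37 without the paralogs, and Pearson's r of length with mean log2 CPM was 0.16. The cause of these changes was not tested.

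The smallest rise that passed the test was 9.26%, and of 50 genes with an unadjusted p under 0.05, 20 passed the adjustment. Labels name no sequencing batch, so a batch within the groups could not be examined.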

Other observations

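The 20 genes that rose were split by the pyrimidine run at the annotated start. Of the 27 genes with a run of at least 8 bases that are C or T, 11 rose (40.7%), and of the 55 without one 9 rose (16.4%), by edgeR's test at an FDR under 0.05, and the median log2 fold change was 0.12 and 0.11. Among the other genes tested 5.33% rose with such a run and 5.50% without one. This split was made after the values were seen and the difference was not tested.

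Rps2 and Rpl3l, which are neighbors on chromosome 17 with 5893 bases between them on the same strand, were each other's closest member across mice, with r of 0.77 in 14 LD mice and 0.74 in 14 ADV mice without 25 and 34, although the r of Rps2 with the average of the other members was 0.24 and 0.28. Ndufb10, which lies between them on the opposite strand, had r of 0.25 and 0.76 with Rps2. Rps29 and Rpl36al, which lie within 50 kb of each other on chromosome 12, had r of 0.60 and 0.43. These pairs were looked for after the correlations were seen.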
